A study of Mus musculus with 4 samples.

Results

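The stretch described here runs from 55800 to 57000 kb of mouse chromosome 14 (build mm9), on the far side of the Tcra/Tcrd locus from its V segments. Its members are the 323 HindIII fragments with midpoints there that at least 1 of the 16 4C-seq libraries lists, out of 26314 such fragments on chr14 (1.23%) and 506753 in all. They were counted in 24 bins of 50 kb. 4C-seq crosslinks chromatin, cuts and religates it, and reads by inverse PCR the fragments that were joined to 1 chosen fragment, the viewpoint. The 4 viewpoints lie in the Tcra/Tcrd locus: INT1 at 54677060 to 54677623, INT2 at 54680988 to 54683873, Ed (E-delta) at 54763263 to 54765182 and TEA at 54769627 to 54773311. The near end of the stretch is 1029 kb (TEA) to 1123 kb (INT1) from a viewpoint's midpoint and the far end 2229 to 2323 kb.

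The DN group is CD4-CD8- thymocytes of Rag2-/- C57BL/6 mice, taken from litters 3 weeks old. The B group is naive B cells of the spleen of wild-type C57BL/6 mice, for which age and isolation are not given in the sources used here. Each group has 2 samples, and each sample was read from all 4 viewpoints. Genotype, tissue and the sequencing folder named in the file headers all change with cell type, so cell type cannot be told apart from them. The labels do not say whether the 2 samples of a group were separate litters or mice, so p-values measure only the spread between these samples, which may be technical. The files hold contacts and no expression, so the cell types were not checked against markers.

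Tcra and Tcrd share 1 locus, in which V segments far upstream are joined to D and J segments near the constant genes. Ed is the enhancer of Tcrd, and TEA, short for T early alpha, holds a promoter that is active before joining, just upstream of the J-alpha segments. RAG proteins cut the segments during this joining, and Rag2-/- thymocytes stop at the DN stage with the locus uncut. What INT1 and INT2 stand for is not said in the labels. In general, contacts fall with distance along the chromosome, and active and inactive chromatin tend to contact chromatin of their own kind.

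The label "gene-dense" could not be checked in mm9, because the files list fragments and not genes. A RefSeq table of another build (GRCm38.p6) gives only gene order here. After Dad1, which lies at the constant end of the locus, lie 85 protein-coding genes before Gzmb. The order of the landmarks in it is Dad1, Psme1, Psme2, Irf9, Ripk3, Nfatc4, Nynrin, Cma1, Ctsg and Gzmb. Psme1 and Psme2 encode subunits of a proteasome activator, Irf9 a factor of the interferon response and Ripk3 a kinase of necroptosis. The 15 genes from Cma1 to Gzmb hold 7 mast cell protease genes, the cathepsin G gene and 7 granzyme genes, all serine proteases of immune granules. Which of these genes lie in the stretch was not determined, and no bin below carries a gene name.

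The 16 libraries held between 1220738 and 17287420 mapped reads, of which 169129 to 2851909 lay on chr14 once the viewpoint fragment and its 2 neighbours were left out. That chr14 part was 11.4% to 28.6% of a DN library and 5.96% to 8.97% of a B library. It was higher in DN replicate 2 than in DN replicate 1 from each viewpoint. Levels below are a percentage of this chr14 total unless another scale is named.

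From TEA, the stretch held 0.95% of chr14 reads in DN replicate 1, 1.34% in DN replicate 2, 1.57% in B replicate 1 and 1.69% in B replicate 2. From INT1 the DN shares were 0.861% and 1.42%, and the B shares 1.86% and 1.39%. From INT2 they were 1.205% and 1.34% in DN and 1.51% and 1.88% in B. From Ed they were 0.249% and 0.31% in DN and 1.11% and 0.567% in B. Both DN libraries lay below both B libraries from TEA, INT2 and Ed, while from INT1 the cell types overlapped. The lowest shares of the 16 libraries were the 2 DN libraries of Ed. The reads behind these shares were 2820 to 38275 (TEA), 10810 to 17010 (INT1), 2623 to 19358 (INT2) and 421 to 3512 (Ed). Wilson 95% intervals reached at most 0.0458 percentage points to either side, which covers counting error only, since PCR copies are not separate molecules.

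The means were 1.15% ± 0.277 (SD, n = 2) in DN against 1.63% ± 0.0858 in B from TEA, 1.14% ± 0.397 against 1.62% ± 0.33 from INT1, 1.27% ± 0.0939 against 1.70% ± 0.261 from INT2, and 0.28% ± 0.0435 against 0.838% ± 0.384 from Ed. In limma over 1.2 Mb windows of chr14, 1 of which is the stretch, the log2 difference of DN minus B was -0.53 (SE 0.50, adjusted p = 0.309) from TEA and -0.54 (SE 0.41, adjusted p = 0.222) from INT1. It was -0.41 (SE 0.34, adjusted p = 0.258) from INT2 and -1.51 (SE 0.76, adjusted p = 0.246) from Ed. None of these passed the threshold of 0.05. Of the 102 windows tested, 66.7% (TEA), 43.1% (INT1), 60.8% (INT2) and 0% (Ed) were called (from Ed, 23 had an unadjusted p under 0.05).

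Most of chr14 was lower in DN than in B on this scale, with window medians of -1.74 (TEA), -1.24 (INT1), -1.58 (INT2) and -1.34 (Ed). The stretch ranked 6, 9 and 6 from the highest of 102 windows for TEA, INT1 and INT2, and 57 for Ed. From TEA, INT1 and INT2 the sign turned with the total it was divided by. Divided by all mapped reads, the difference was 1.03 from TEA, 0.56 from INT1 and 0.72 from INT2, higher in DN, at adjusted p of 0.706, 0.837 and 0.356. From Ed it stayed negative, at -0.56 (adjusted p = 0.752). Without DN replicate 2, the TEA difference was -0.78 with an adjusted p of 0.0419, where 66.7% of windows were called. DN is then 1 sample, which limma takes to vary like the B samples.

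**Figure D1:**
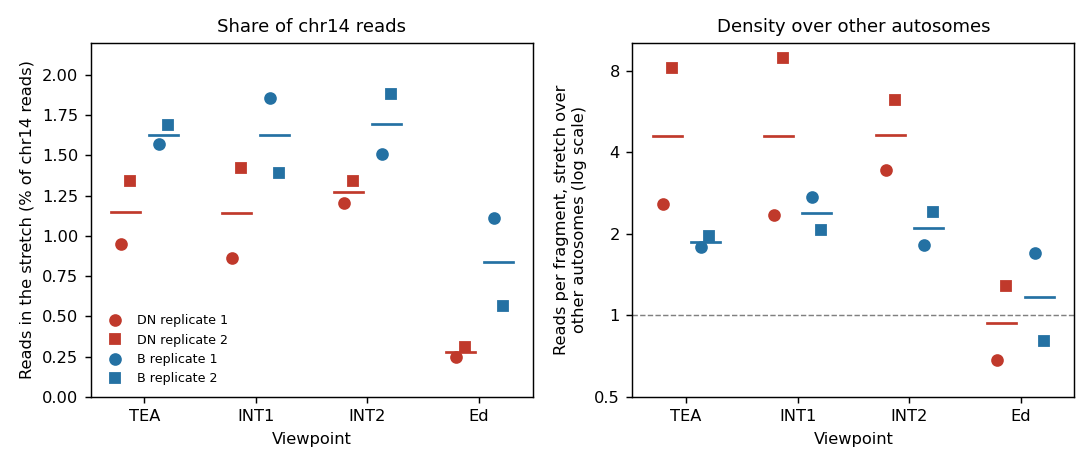
Reads in the stretch as a percentage of chr14 reads (left) and reads per listed fragment of the stretch over those of the other autosomes on a log scale (right), for each library by viewpoint, with horizontal bars at the group means (geometric on the right). On the left the DN points from Ed are the lowest, at 0.249% and 0.31%, and on the right the DN replicate 2 points of TEA, INT1 and INT2 are the highest, between 6.24 and 8.95.

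A ratio within each library needs no chr14 total. Reads per listed fragment of the stretch, divided by reads per listed fragment of the other autosomes, were 2.57 and 8.24 in DN against 1.79 and 1.97 in B from TEA. From INT1 they were 2.35 and 8.95 against 2.75 and 2.07, and from INT2 3.44 and 6.24 against 1.82 and 2.41. From Ed they were 0.682 and 1.28 against 1.69 and 0.807. All 12 libraries of TEA, INT1 and INT2 read the stretch more densely than other autosomes, while the Ed libraries lay on both sides of 1. Both DN libraries were above both B libraries from TEA and INT2, and the cell types overlapped from INT1 and Ed. The DN replicate 2 value was the higher DN value from each viewpoint, and that sample also had the higher chr14 part of the library; the part of one in the other was not tested.

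The geometric mean of this ratio was 2.46-fold higher in DN than in B from TEA and 2.21-fold higher from INT2, with exact permutation p of 0.33, the smallest that 2 against 2 samples allow. On the log2 scale the TEA difference was 1.30, or 0.46 without DN replicate 2 and 2.14 without DN replicate 1. For INT2 it was 1.15, or 0.72 and 1.57 without the same samples. From INT1 it was 1.92-fold higher (exact permutation p = 0.667) and without DN replicate 2 the log2 difference was -0.02. From Ed it was 1.25-fold higher in B (exact permutation p = 0.667). A design of this size cannot reach 0.05 with this test.

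The neighbours of the stretch show where it lies on the fall with distance. Between 54880 and 55800 kb, the density over other autosomes was 6.91 to 117 in DN libraries and 4.45 to 19.8 in B libraries. In the stretch it was 0.682 to 8.95 in DN and 0.807 to 2.75 in B. From 57000 to 58200 kb it was 1.08 to 6.13 in DN and 0.557 to 3.05 in B. The stretch was less dense than the near flank in all 16 libraries. It was denser than the segment beyond it in 12 of 12 libraries of TEA, INT1 and INT2 and in 0 of 4 Ed libraries, where the ratio of stretch to segment beyond was 0.63 and 0.209 in DN and 0.556 and 0.535 in B. With each captured fragment counted once, the Ed ratios were 0.916 and 2.38 in DN and 1.36 and 1.04 in B, so that order did not hold without read numbers.

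A further ratio within libraries compared the sides of the viewpoint. For each viewpoint, the stretch was set against the 1.2 Mb at the same distance on the other side. This opposite stretch holds 334 to 353 listed fragments and reaches into the V segments, so it is no neutral control for distance. For TEA it runs from 52542938 to 53742937 and for INT1 from 52354682 to 53554681. From TEA, reads per fragment in the stretch were 0.342 and 0.361 of those in the opposite stretch in DN, and 1.28 and 1.15 of them in B. From INT1 the DN ratios were 0.55 and 0.717, and the B ratios 1.68 and 1.37. From INT2 they were 1.04 and 0.882 in DN and 1.32 and 1.29 in B. From Ed they were 0.159 and 0.2 in DN and 1.31 and 0.754 in B. The DN and B libraries did not overlap from any viewpoint, with DN lower each time.

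From TEA and INT1 both DN samples had less density in the stretch than opposite it, and both B samples had more. The geometric mean ratio was lower in DN by 3.46-fold (TEA), 2.42-fold (INT1), 1.36-fold (INT2) and 5.58-fold (Ed). Averaged over the 4 viewpoints on the log2 scale, the ratio was 0.42 and 0.462 in the DN samples and 1.39 and 1.11 in the B samples, a 2.82-fold difference (log2 -1.50). The exact permutation test of DN against B gave p = 0.33, the smallest possible with 2 against 2 samples. The sign-flip permutation test over the 4 samples, exact and two-sided, gave p = 0.5 for a mean ratio other than 1, where 0.13 is the smallest it can give.

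A limma fit over the 40 pairs of 1.2 Mb windows at equal distances, chosen after seeing the data, gave a log2 difference of -1.50 (SE 0.23, adjusted p = 0.039) for the mean of the 4 viewpoints. The pair that holds the stretch was the only 1 of 40 called (2.5%), ranked 2 from the lowest, and the median of all pairs was -0.04. For single viewpoints by reads, the adjusted p was 0.222 (TEA), 0.198 (INT1), 0.468 (INT2) and 0.507 (Ed), with 0% of pairs called in each. With each captured fragment counted once, TEA passed in the limma fit (log2 -0.80, adjusted p = 0.0232, 2 of 40 pairs called). The others did not, at adjusted p of 0.710 (INT1), 0.389 (INT2) and 0.210 (Ed). By reads, 3, 8, 7 and 5 pairs had an unadjusted p under 0.05 from TEA, INT1, INT2 and Ed. For the mean of the 4 viewpoints 8 of 40 did.

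The other term of this ratio was the density opposite the stretch. Over other autosomes, it was 7.52 and 22.8 in DN against 1.39 and 1.70 in B from TEA, and 4.27 and 12.5 against 1.63 and 1.51 from INT1. It was 3.33 and 7.08 against 1.38 and 1.88 from INT2, and 4.29 and 6.40 against 1.29 and 1.07 from Ed. Over the 8 libraries of a cell type it spanned 3.33 to 22.8 in DN and 1.07 to 1.88 in B, without overlap. The stretch spanned 0.682 to 8.95 in DN and 0.807 to 2.75 in B, with overlap. The chr14 part of the library was also higher in every DN library than in every B library, and its part in these densities was not tested.

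**Figure D2:**
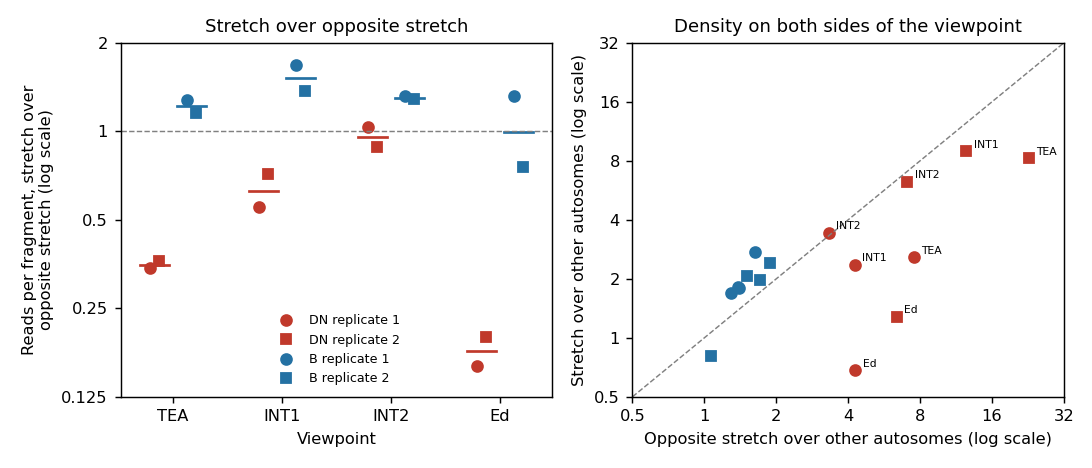
Left, reads per fragment of the stretch over those of the 1.2 Mb at the same distance on the other side of the viewpoint, on a log scale, for each library, with bars at the geometric means and a dashed line at 1. Right, the density of the stretch against that of the opposite stretch, both over other autosomes on log scales, with the DN points named by viewpoint and the dashed line marking equal density. B points lie near the line between 0.807 and 2.75, and the DN points of TEA, INT1 and Ed lie below it.

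The members were also counted by capture in place of reads. A fragment is called captured in a library when it has at least 1 read there. TEA captured 104 and 113 of the 323 members in DN and 102 and 131 in B. INT1 captured 114 and 124 in DN against 108 and 95 in B, INT2 53 and 71 against 65 and 99, and Ed 19 and 39 against 43 and 33. Only from INT1 did the cell types not overlap, with more members captured in DN (exact permutation p = 0.33). Elsewhere on the autosomes the same libraries captured 4.23% to 18.5% of listed fragments in DN and 6.97% to 25.7% in B.

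Relative to that background, the capture rate of the stretch was 1.79 and 2.92 times that of other autosomes in DN against 1.44 and 1.58 in B from TEA. It was 1.90 and 4.94 against 1.62 and 1.76 from INT1, 2.29 and 3.45 against 1.49 and 1.88 from INT2, and 1.09 and 2.85 against 1.91 and 1.10 from Ed. All 16 libraries captured members at a higher rate than fragments of other autosomes. The ratio to the opposite stretch, also with each fragment counted once, was 0.719 and 0.698 in DN against 1.13 and 1.35 in B from TEA. Counted this way, the DN libraries again lay below the B libraries from each of the 4 viewpoints, and the log2 difference of the mean over viewpoints was -0.87.

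Members captured in both samples of a group made 5.13% to 54.9% of those that each sample captured. From TEA the DN samples shared 40 members, 38.5% of those of replicate 1 and 35.4% of those of replicate 2, and the B samples 56 (54.9% and 42.7%). From Ed the DN samples shared 2 (10.5% and 5.13%) and the B samples 13 (30.2% and 39.4%). INT1 and INT2 lay between 32.3% and 50.9%. The median member was captured in 3 of 16 libraries, 53 members in only 1 and 41 in 8 or more. Both cell types captured 222 members, only DN libraries 48 and only B libraries 53. The same split over all listed chr14 fragments is not given here, so these counts cannot be read as a trait of the stretch.

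By viewpoint, TEA captured 248 members at least once, INT1 245, INT2 177 and Ed 97. All 4 viewpoints captured 48 members, 3 captured 101, 2 captured 98 and a single viewpoint captured 76. Over chr14 as a whole, the mean share of listed fragments captured was also lowest from Ed, at 6.69% in DN and 9.2% in B. From TEA it was 18.6% in DN and 26.2% in B. The same counts over all listed chr14 fragments are not given here, so the counts by viewpoint cannot be read as a trait of the stretch. Members were 57 to 20159 bp long, with a median of 2485 bp. Longer members were captured more often: the shortest quartile (57 to 1149 bp) was captured in 15.5% of possible cases and the longest (4658 to 20159 bp) in 33.8%. Spearman's rho between length and number of libraries was 0.468 over the 323 members, which share the libraries. Of neighbouring members 281 pairs lay 6 bases apart, the length of the HindIII site, and 41 had a longer gap, up to 10161 bases, with no listed fragment.

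Along the stretch, capture fell from the near to the far end. In the first 400 kb, 28.8% of possible captures were made (535 of 1856), in the next 400 kb 26.9% and in the last 400 kb 19.98%. In DN the 3 blocks gave 29.0%, 26.1% and 18.3%, and in B 28.7%, 27.7% and 21.7%. Reads per fragment were higher in the first block than in the last in 12 of 16 libraries, 5 of 8 in DN and 7 of 8 in B. Over the 24 bins, Spearman's rho between order along the stretch and captures was -0.59, as a description of bins that share libraries. By reads, INT2 in DN went the other way, with 0.436% ± 0.036 (SD, n = 2) of chr14 reads in the first block and 0.497% ± 0.0831 in the last. In DN replicate 2 of INT2, a single fragment of the last block, described below, held 23.9% of the reads of the stretch. By capture, INT2 in DN did not go the other way. Its 2 samples captured 20 and 31 of 116 listed fragments in the first block and 15 and 17 of 102 in the last. DN replicate 1 and B replicate 2 of TEA also had more reads in the last block than in the first.

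Single bins were uneven and little reproduced. Of the 24 bins, 20 were captured in all 12 libraries of TEA, INT1 and INT2, and 6 in all 4 Ed libraries. The mean share per listed fragment over the 16 libraries was 6.01 times as high in the highest bin as in the lowest. Pearson's r between the 2 samples of a group over the 24 bins was 0.669 and 0.607 from INT1 in DN and B, 0.0982 and 0.137 from TEA, 0.494 and 0.0504 from INT2, and -0.21 and 0.531 from Ed. The median absolute log2 difference between replicates over 50 kb bins of chr14 was 1.59 to 5.10, and over 1.2 Mb windows 0.252 to 1.35.

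The 3 bins with the highest mean share per listed fragment were 55800 to 55850, 56600 to 56650 and 56050 to 56100 kb. In the first, nearest the locus, the TEA libraries held 0.0792% and 0.0605% in DN and 0.0231% and 0.138% in B. From INT1 it held 0.0769% and 0.169% in DN against 0.252% and 0.131% in B, and from INT2 0.0960% and 0.0968% in DN and 0.173% and 0.233% in B. From Ed it held 0.0112% and 0.00856% in DN and 0.235% and 0.105% in B. From INT2 and Ed both B samples were above both DN samples in this bin, and from TEA and INT1 they overlapped. Over all tested bins of chr14, 46.4% (INT2) and 36.6% (Ed) had no overlap between the cell types. Only 23.4% (INT2) and 27.2% (Ed) of all tested bins were higher in DN. Its highest fragment, at 55817122 to 55820897 (3776 bp), was captured in 13 libraries and made 19.8% of the bin's mean.

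The bin from 56600 to 56650 kb owed 46.3% of its mean to 1 fragment at 56615147 to 56618325 (3179 bp), which had the highest mean share of all members, 0.0318%. That fragment held 0.320% of chr14 reads in DN replicate 2 of INT2, which was 23.9% of all reads of the stretch in that library. In DN replicate 1 of INT2 it held 0.0762%, and in the B libraries of INT2 0% and 0.0615%. It was captured in 3 of 4 libraries of TEA, 1 of INT1, 3 of INT2 and 0 of Ed.

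The bin from 56050 to 56100 kb was the highest of the stretch in both DN libraries of INT1, at 0.145% and 0.253%, against 0.147% and 0.112% in B. Its highest fragment, at 56052221 to 56052812 (592 bp), was captured in 4 of 4 libraries from INT1, with 0.0682% and 0.137% in DN and 0.0213% and 0.0395% in B, and in 0 of 4 from Ed. The member captured in the most libraries, 14 of 16, lies in the same bin at 56076373 to 56080846 (4474 bp) and was picked out after its values were seen. It held at most 0.0272% of chr14 reads, against a mean of 0.0318% for the most read member.

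The 3 lowest bins per fragment were 56400 to 56450, 56950 to 57000 and 56000 to 56050 kb. Their mean shares of chr14 reads were 0.0196%, 0.0213% and 0.0287%, against 0.118% in the highest bin. In the last bin of the stretch, 56950 to 57000 kb, B replicate 2 of TEA alone held 0.156%, 0.114% of it on 1 fragment at 56981034 to 56988027, while the other 15 libraries held at most 0.0343%.

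**Figure D3:**
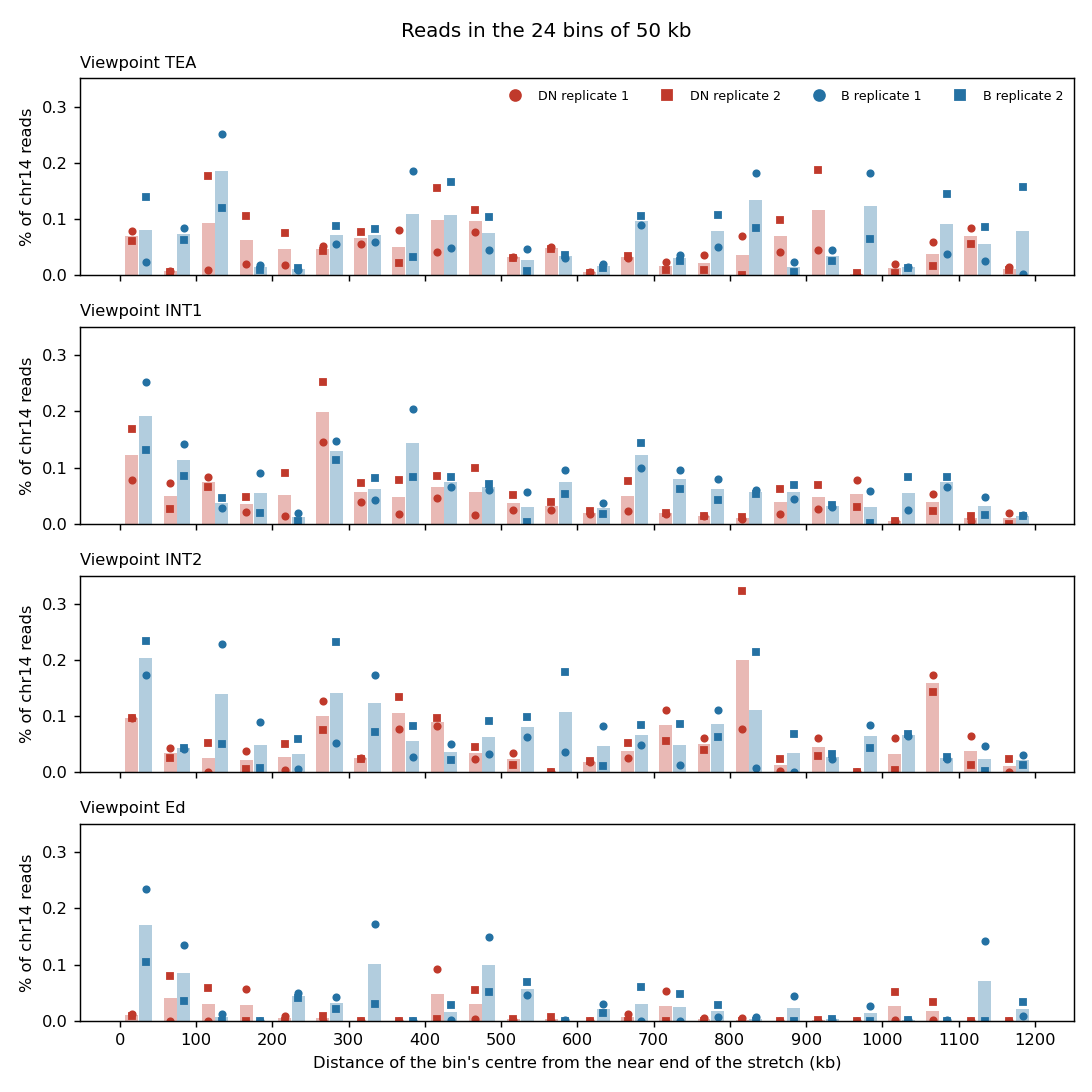
Share of chr14 reads in each of the 24 bins by viewpoint, against the distance of the bin's centre from the near end of the stretch in kb. Bars are group means of 2 samples and symbols are single libraries. The Ed panel has its highest bar in B at the first bin (0.235% and 0.105%), where the DN samples are at 0.0112% and 0.00856%.

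With limma over the 50 kb bins of chr14, 0 of the 24 bins of the stretch differed between DN and B from TEA, INT1 or INT2, and 0 of the 21 tested from Ed. The called share of all bins was 0.0419% (TEA), 0.167% (INT1), 0% (INT2) and 0% (Ed), so these counts are those of the background. At an unadjusted p under 0.05, 1, 3, 3 and 3 of the bins passed from TEA, INT1, INT2 and Ed, and edgeR on recovered reads called 0 from INT1, INT2 and Ed. In limma over all bins, 225 of 2384 (TEA), 147 of 2396 (INT1), 482 of 2264 (INT2) and 231 of 1696 (Ed) passed unadjusted. Over all bins edgeR called 2 from INT2 and 8 from Ed. Without B replicate 1 there were 2 called bins of the stretch from Ed, where 22.9% of all bins were called, and without B replicate 2 there were 4, where 20.5% were. The B group is then 1 sample, taken to vary like the DN samples. The lowest adjusted p over all samples was 0.0727, from INT2. The median log2 difference over the bins of the stretch was -0.58 from TEA against -2.08 over all bins, -0.75 against -1.59 from INT1, -0.73 against -2.93 from INT2 and -4.02 against -2.84 from Ed.

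Averaged over the 4 viewpoints, 0 of 21 bins were called in limma, where 2.09% of all bins were. At an unadjusted p under 0.05, 4 of the 21 passed, against 362 of 1533 over all bins. Of the 21 bins of the stretch 18 were lower in DN and 3 higher, where 12.2% of all 1533 bins were higher in DN. That direction is therefore no trait of the stretch. Between the cell types 12 did not overlap, 1 of them higher in DN, against 58.6% of all bins without overlap.

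Numbers of captured fragments per bin, as a share of the chr14 fragments captured, leaned the other way. The median log2 difference of DN minus B was 0.39 (TEA), 0.49 (INT1), 0.49 (INT2) and 0.09 (Ed), where the medians over all bins were -0.01, -0.08, 0.00 and -0.16. In limma 0 bins of the stretch were called from any viewpoint, and 4, 5, 3 and 2 had an unadjusted p under 0.05. Over all bins, 129 of 2384 (TEA), 137 of 2396 (INT1), 197 of 2264 (INT2) and 122 of 1696 (Ed) did. The called share of all bins was 0.503% (TEA), 0.0417% (INT1), 0.618% (INT2) and 0% (Ed). For the mean of the viewpoints it was 1.63% of all bins and 0 of 21 in the stretch. Of these 21 bins, 5 had an unadjusted p under 0.05, against 144 of 1533 over all bins. In INT1 the lowest adjusted p was 0.0671, in the bin from 55900 to 55950 kb, with 11 and 9 of 14 fragments captured in DN and 3 and 3 in B. After thinning the INT1 libraries to equal chr14 reads 1 bin was called, higher in DN, against 0.209% of all bins, and without DN replicate 1 there were 4, against 1.71%. Without DN replicate 1, 1 bin was called from TEA (1.3% of all bins), and without DN replicate 2, 1 from Ed (0.295%), again with the lone DN sample taken to vary like the B samples.

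**Figure D4:**
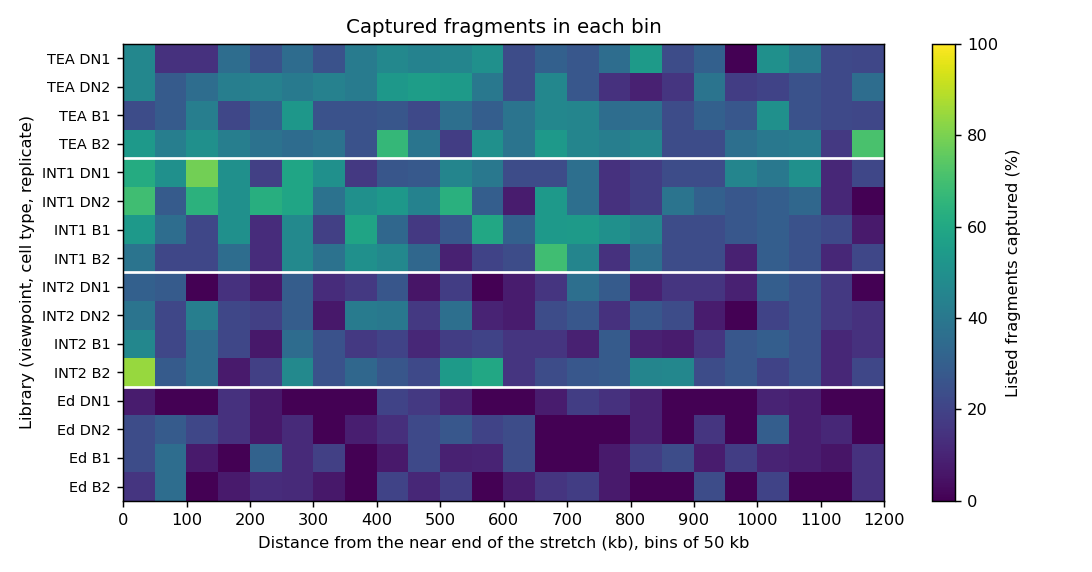
Percentage of the listed fragments of each 50 kb bin captured in each of the 16 libraries, against distance from the near end of the stretch in kb, with white lines between viewpoints. The Ed rows are the darkest, with 5.88% to 13.3% of all members captured, and both B rows of INT1 have 3 of 14 fragments captured in the third bin, where the DN rows have 11 and 9.

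The viewpoints differed among themselves in DN. Ed and TEA have midpoints 7.25 kb apart, yet the stretch took 0.249% and 0.31% of chr14 reads from Ed in DN and 0.95% and 1.34% from TEA. In limma over 1.2 Mb windows of all 16 libraries, with the sample as a term, the stretch was lower from Ed than from TEA by a log2 difference of -2.02 (SE 0.38, adjusted p = 0.00618) in DN, where 8.82% of windows were called. In B the difference was -1.04 (SE 0.38, adjusted p = 0.161), with 1.96% of windows called. The interaction of the contrast with cell type was -0.98 (SE 0.54, adjusted p = 0.344), so the contrast was not shown to differ between DN and B. This contrast was chosen after seeing the data. With each captured fragment counted once it was -0.51 in DN (adjusted p = 0.207), and without B replicate 1 or B replicate 2, which changes only the estimated spread, its adjusted p was 0.0746 and 0.0712. In B, leaving out DN replicate 1 or DN replicate 2 gave adjusted p of 0.00761 and 0.0133.

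The Ed libraries were shallow in the stretch. In DN 89.5% and 71.0% of their reads there came from the 5 highest fragments, against 46.4% and 54.6% in B and 17.6% to 44.4% in the 12 libraries of the other viewpoints. The 2 DN samples of Ed together held 2451 reads in the stretch, on 19 and 39 fragments. INT1 and INT2, with midpoints 5.09 kb apart, differed by 0.20 in DN (SE 0.38, adjusted p = 0.878) and by 0.07 in B (SE 0.38, adjusted p = 0.993) in INT2 minus INT1.

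Tested over the 4 viewpoints together, the stretch as 1 window differed in DN (limma F-test, adjusted p = 0.0127, 11.8% of windows called). With each captured fragment counted once, the adjusted p in DN was 0.161 (0.0173 before adjustment), with 3.92% of windows called. By reads, the window did not pass in B (adjusted p = 0.433, 0.98% called). The test of whether the cell type difference depended on the viewpoint gave an adjusted p of 0.548, with 0.98% of windows called. In 50 kb bins, 2 of 21 bins of the stretch differed among viewpoints in DN, against 1.04% of all bins. They were 56100 to 56150 kb (adjusted p = 0.00214) and 56050 to 56100 kb (adjusted p = 0.0164).

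In the bin from 56100 to 56150 kb, DN libraries held 0.0549% and 0.0767% from TEA, 0.0386% and 0.0728% from INT1 and 0.0257% and 0.0241% from INT2. From Ed they held 0% and 0%, where a bound of 3 reads is 0.00177% and 0.000459% of chr14 reads. That bound takes reads as separate molecules, which PCR copies are not. Captured members in these 2 libraries held 22.2 and 52.1 reads on average, so the bound on contacts in the bin is looser. B libraries of Ed held 0.173% and 0.0295% in that bin. In the bin from 56050 to 56100 kb, the DN libraries of Ed held 0% and 0.0086%, and those of the other viewpoints 0.0426% to 0.253%. In B, 0 of 21 bins were called (0.391% of all bins), with 5 at an unadjusted p under 0.05 (113 of all 1533 bins). For the dependence on cell type 0 were called (0.13% of all bins), with 2 at unadjusted p under 0.05 (103 of all 1533 bins). Counting captured fragments in place of reads, 0 of the 21 bins were called in DN, against 16 of 1533 over all bins. Before adjustment 4 of the 21 were under 0.05, against 231 over all bins.

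The profile over bins was not the same from neighbouring viewpoints. Pearson's r over the 24 bins between the group means of INT1 and INT2 was 0.171 in DN and 0.519 in B, and between TEA and Ed 0.184 in DN and -0.04 in B. The mean profile of DN libraries against that of B libraries had a Pearson's r of 0.564 and a Spearman's rho of 0.46. These bins share libraries and fragment lengths, and the values are descriptions. A bulk 4C value also does not tell a contact made in more cells from one made more often in each cell.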

How the data were processed

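The deposited tables give, for each HindIII fragment with reads, the RPM (reads scaled to the mapped reads of the library), computed by the authors, with fragments padded by 40 bp per the file headers. The submitters' processing notes name CASAVA, Bowtie and mm9. An absent fragment counted as 0. The 8 deposited mean tables were not used. The value of 1 read was recovered from the RPM steps, and the values of single fragments were whole reads within 0.02 in each library. Library size was the chr14 total without the viewpoint fragment and its 2 neighbours.

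limma 3.58.1 (R 4.3.3, trend, two-sided) was run on log2(RPM + 1) of all windows or bins of chr14 with a mean of at least 10 reads, so fold changes of low values are understated. Adjusted p is Benjamini-Hochberg, threshold 0.05. Captured fragments had an offset of 0.5. edgeR 4.0.16 ran on recovered reads of INT1, INT2 and Ed. Ratios were tested by exact permutation, two-sided. A count of 0 was bounded at 3 reads, which takes reads as separate molecules. Alternatives were other library sizes, TMM factors, capped or once-counted fragments, thinning, 25 and 100 kb bins, no filter, a pseudocount of 10, a replicate block and each sample left out. The bin fit was tested on simulated data, where recovery of changed bins was required only at a spread well below that between replicates. At the spread of the data only the mean effect was checked, so the simulation does not show how many real changes would be called. Named bins are those called, the 3 highest and 3 lowest per fragment and their highest fragments. The members, lists and tests were chosen with earlier results of these data known. No mm9 sequence or annotation was used here.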

Additional observations from a re-analysis of the deposited data

Results flagged for a closer look

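The ratio of the stretch to the stretch at the same distance on the other side of the viewpoint stood out because every DN sample lay below 1 and every B sample above 1. This held from TEA (log2 difference of DN minus B -1.79), from INT1 (-1.27) and for the mean over the 4 viewpoints (-1.50). For the mean the difference was tested in limma over 40 window pairs (adjusted p = 0.039), a fit chosen after seeing the data. For TEA and INT1 by reads the adjusted p in limma was 0.222 and 0.198. With each captured fragment counted once it was 0.0232 for TEA and 0.710 for INT1. The opposite stretch reaches into the V segments, so the ratio is not a trait of the stretch alone.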

How the results depend on the processing

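The sign of the share of chr14 reads in the stretch, negative in DN minus B, turned with the scaling from TEA, INT1 and INT2, and no value under these scalings passed the threshold. With library size over all mapped reads the log2 difference was 1.03 (TEA), 0.56 (INT1) and 0.72 (INT2), over chr14 beyond 1 Mb of the viewpoint 0.89, 0.48 and 0.88, and with TMM factors 1.11, 0.62 and 1.11. With each captured fragment counted once it was 0.41, 0.52 and 0.40, and with fragments capped at the 95th percentile 0.45 (TEA), -0.097 (INT1, not turned) and 0.00056 (INT2). From Ed it stayed negative in these 5 settings, at -0.56, -0.76, -0.23, -0.0050 and -0.72 in the same order. Leaving out 1 sample at a time gave -0.78 to -0.28 for TEA, and it passed without DN replicate 2, where DN is 1 sample taken to vary like the B samples. Of the 50 kb bins, leaving out 1 sample called 0 to 4 from Ed. Of captured fragments per bin, it called 0 to 1 (TEA), 0 to 4 (INT1) and 0 to 1 (Ed), and thinning called 1 from INT1. Counting fragments once left 0 bins that differed among viewpoints in DN. Ed against TEA in DN was -0.51 with fragments counted once, no longer past the threshold, and -2.11 to -1.93 with 1 sample left out. In B it was -1.58 to -0.50. The density over other autosomes, DN against B, spanned -0.021 to 1.91 from INT1 and -0.86 to 0.21 from Ed with 1 sample left out, and was 0.28 from Ed with fragments counted once. The ratio to the opposite stretch kept its direction in every setting run, and its mean over viewpoints passed in limma over window pairs (-1.50). In all, 186 values were labelled as unchanged, 18 as reversed, 7 as moved, 4 as stronger and 3 as weaker. For a tested difference, unchanged means only that it kept its sign and its side of the threshold. Its size could change, as for the share from Ed, from -1.51 to -0.0050 with fragments counted once. Among the unchanged values are counts that stayed at 0 called bins, which have no direction. For ratios tested by exact permutation p cannot fall below 0.33, so they could not cross the threshold. The cause of the changes named above was not tested.

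Same-numbered samples of DN and B showed no joint deviation (correlations -0.01 to 0.01 over 50 kb bins). Replicates differed in such bins by a median absolute log2 of 1.59 to 5.10, so a shared batch could go unseen. With a replicate block the difference in share was -0.53 (TEA), -0.54 (INT1), -0.41 (INT2) and -1.51 (Ed), and the block called 0 bins of the stretch, as without it. The fewest reads in the stretch were 421, in DN replicate 1 of Ed.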
